A study of Mus musculus with 4 samples.

Results

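Nuclear pore complexes are the channels through which proteins and RNA cross the nuclear envelope, and soluble transport receptors carry cargo through them. The genes described here are those of the expression table whose symbol marks a numbered nucleoporin (Nup), an importin (Kpna, Kpnb, Ipo, Tnpo), an exportin (Xpo, Cse1l), the basket protein Tpr, or the GTPase Ran with its partners Rangap1 and Ranbp1. The rule found 48 genes among the 16718 of the table, 21 pore proteins, 24 transport receptors and 3 genes of the Ran cycle. The samples were naive mouse CD4+ T cells stimulated for 4 hours with an antibody to CD3, a chain complex of the T cell receptor. The 2 genotypes were wild type (WT) and a conditional knockout (cKO) of the zinc finger transcription factor gene Zfp281, with 2 libraries labelled for each, and both received the same stimulation. For the Cre driver, the age of the mice and the number of animals behind a library, values were not given in the sources used here.

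Expression was given as FPKM, fragment counts scaled by transcript length and by sequencing depth, with 1 value per gene and genotype and none for a single library. How much libraries of a genotype vary cannot be seen from such values, so that all differences stand without a check by replicates. An estimated 17350230 reads lay behind the WT column and 17193322 behind the cKO column. Ratios are cKO over WT, and their 95% intervals (exact Clopper-Pearson, on estimated reads) cover counting error only. A gene was called higher or lower, and is said to have risen or fallen, where the authors' deposited table gave an FDR below 0.05 and at least 1 genotype had 1 FPKM. That FDR compares 2 sets of reads, not 2 conditions with their biological spread. The targeted gene Zfp281 stood at 66.3 FPKM in WT and 0.44 in cKO, in the direction of the labels. All 7 markers of CD4+ T cells examined were expressed, from 149 to 598 FPKM in WT, and all 7 fell, their summed level going from 2343 to 1941 FPKM. The summed level of 5 B cell markers was 2.39 FPKM in WT and 3.87 in cKO, that of 4 myeloid markers 0.76 and 1.66 FPKM, and that of 2 CD8 T cell markers 11.8 and 18.3 FPKM, nearly all of it from Cd8b1. By the same rule Cd8b1 rose, from 11.5 to 17.8 FPKM, and so did the myeloid marker Lyz2, from 0.22 to 1.09 FPKM. The other B cell, myeloid and CD8 T cell markers did not pass. The part of all these markers in the results below was not tested.

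In outline, import receptors bind cargo in the cytoplasm and release it in the nucleus when they meet Ran loaded with GTP, whereas exportins pick up cargo together with that form of Ran. Importin alpha proteins are adaptors that hold a classical nuclear localisation signal and dock on importin beta. The pore is built of an outer and an inner scaffold ring, membrane anchors, a central channel lined by phenylalanine-glycine repeats, cytoplasmic filaments and a nuclear basket. T cells that leave quiescence enlarge their nucleus and step up RNA and ribosome production, which draws on this machinery.

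Nuclear transport genes were shifted towards lower values in cKO, and the shift was shallow. Of the 46 genes that reached 1 FPKM, 23 fell, none rose and 23 did not pass. By the same rule 16.9% of all 10728 genes tested were lower and 19.9% higher. Because most of these genes are well expressed, the background among genes at 10 FPKM or more is also given: 22 of 41 transport genes were lower there, against 22.8% of all 6582 such genes. Whatever the FDR, 39 of the 46 genes lay below their WT value and 7 above it, whereas 46.6% of all genes tested lay below. The median ratio was 0.896, compared with 1.01 over all genes tested, and single genes ranged from -0.47 to 0.10 on the log2 ratio scale. A fall of at least 1.2-fold was found for 10 of the 46, beside 8.92% of all genes tested. None of the 48 genes was marked as regulated in the authors' deposited table, where marks require 2-fold differences or more with an FDR up to 0.001 and were given to 0.939% of all 16718 genes. At an unadjusted p below 0.05 in the authors' deposited table, 29 of the 46 were lower and 2, Nup98 and Ipo9, higher, beside 21% and 24.9% of all genes tested. Nup210l and Kpna7, germline-biased relatives of Nup210 and of the importin alphas, stayed below 1 FPKM and were not tested.

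**Figure D1:**
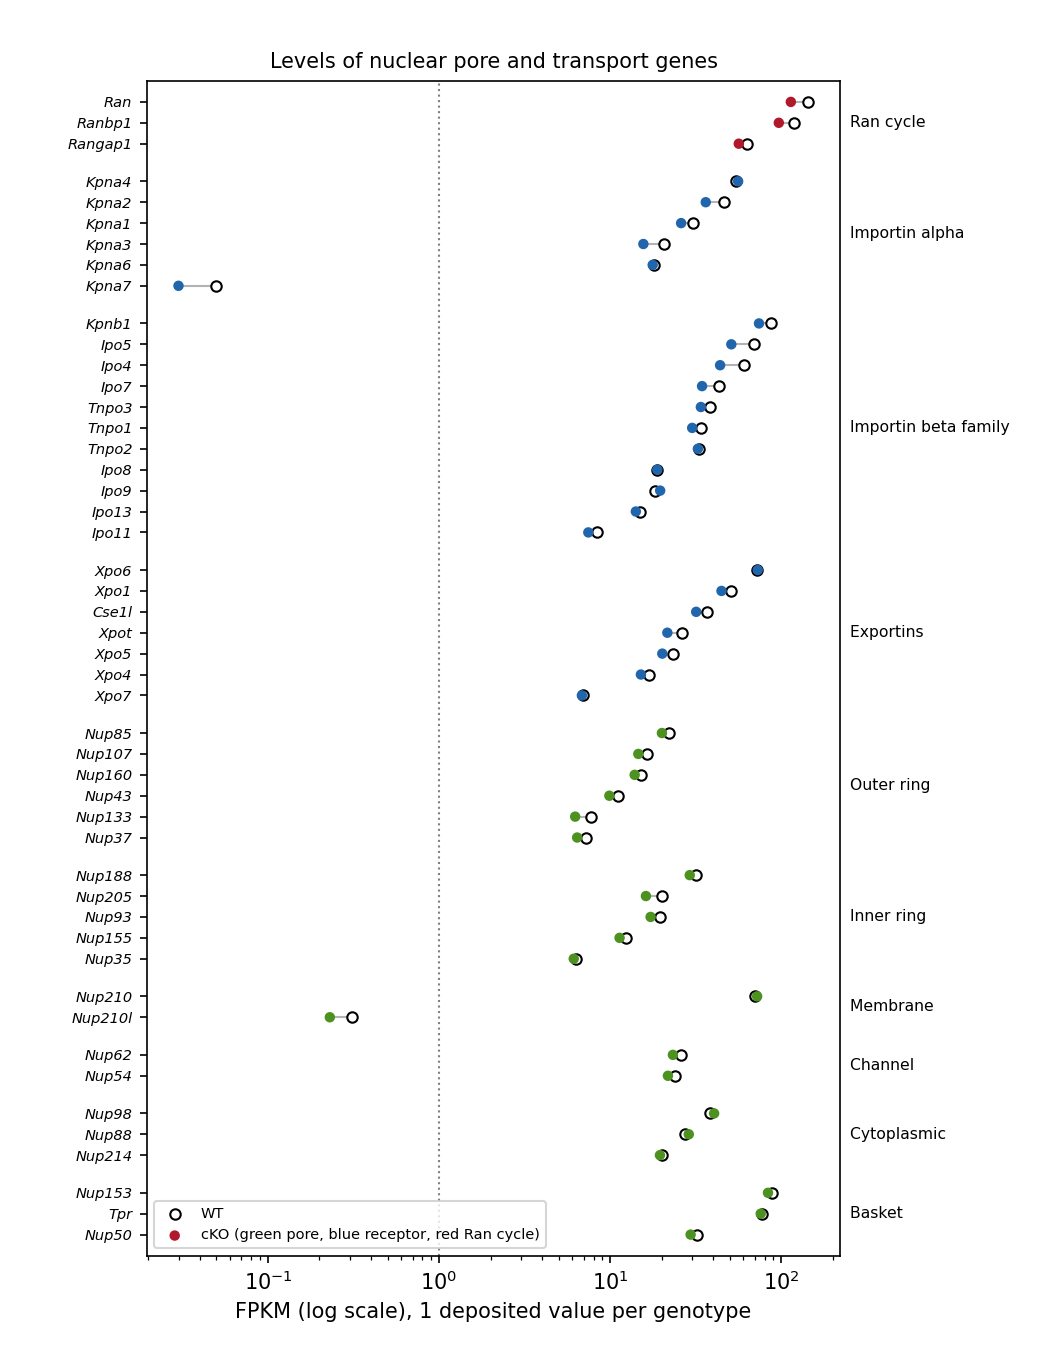
FPKM of the 48 genes in WT (open circles) and cKO (filled circles) on a log axis, grouped by role and ordered by WT level; the dotted line marks 1 FPKM. Ran and Ranbp1 had the highest levels and Kpna7 the lowest, and most filled circles lie to the left of their open circle.

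All 3 genes of the Ran cycle fell, beside 16.9% of all genes tested. Ran, the GTPase whose nucleotide state gives transport its direction, was the most abundant gene of the set, at 144 FPKM in WT and 114 in cKO. The ratio was 0.788 (0.758 to 0.820), from an estimated 5733 and 4480 reads. Ranbp1, a cytoplasmic protein that helps strip Ran-GTP from receptors, stood at 118 FPKM in WT and 96.9 in cKO, a ratio of 0.819 (0.762 to 0.880). Rangap1, which switches on GTP hydrolysis by Ran at the cytoplasmic face of the pore, stood at 63.0 and 56.5 FPKM, a ratio of 0.897 (0.853 to 0.943). FDR values in the authors' deposited table were 2.83e-31 for Ran, 3.83e-07 for Ranbp1 and 0.000196 for Rangap1. Summed over the Ran cycle, 326 FPKM in WT became 267 FPKM in cKO. Rcc1, the chromatin-bound exchange factor that loads Ran with GTP and is not among the 48, fell as well, from 28.4 to 22.3 FPKM, to 0.786 of WT (0.719 to 0.859).

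Importin alpha genes gave 3 falls among the 5 tested, beside 16.9% of all genes tested. Kpna3 went from 20.6 to 15.7 FPKM, 0.762 of WT (0.705 to 0.824), Kpna2 from 46.3 to 36.2 FPKM, 0.782 of WT (0.727 to 0.842), and Kpna1 from 30.6 to 26.0 FPKM, 0.849 of WT (0.797 to 0.904). Each of these falls passed. Kpna4, the most abundant importin alpha, did not pass, with 54.6 FPKM in WT and 56.0 in cKO, and neither did Kpna6, with 18.2 and 17.7 FPKM. Kpna4 made up 32.1% of the family's summed FPKM in WT and 36.9% in cKO, and Kpna2 27.2% and 23.9%. No test of these shares was possible with 1 value per genotype.

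Among 11 importin beta family genes 6 fell, beside 16.9% of all genes tested, and 5 did not pass. Kpnb1 encodes importin beta itself, the partner of all importin alphas, and had the highest level of the family, 87.1 FPKM in WT and 74.2 in cKO, a ratio of 0.852 (0.826 to 0.878). The largest falls among the 46 genes belonged to Ipo4 and Ipo5, which are known to import histones and ribosomal proteins. Ipo4 stood at 60.8 FPKM in WT and 44.0 in cKO, a ratio of 0.723 (0.689 to 0.760), with an FDR of 5.13e-37 in the authors' deposited table. Ipo5 stood at 69.4 and 51.1 FPKM, a ratio of 0.737 (0.708 to 0.767), with an FDR of 2.66e-48 in the authors' deposited table. Ipo7, another importer of ribosomal proteins, followed at 43.2 and 34.5 FPKM, a ratio of 0.797 (0.750 to 0.848). The transportins Tnpo1, which imports RNA-binding proteins, and Tnpo3, which imports splicing factors rich in serine and arginine, fell to 0.884 of WT each. Tnpo2, a close relative of Tnpo1, was at 33.2 and 32.6 FPKM and did not pass. The remaining receptors of this family, Ipo8, Ipo9, Ipo11 and Ipo13, had lower levels, from 7.46 to 19.6 FPKM, and did not pass. Ipo9, which carries histones, had the highest ratio of the 46 genes, 1.07 (1.01 to 1.14), with an FDR of 0.107 in the authors' deposited table.

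Of 7 exportin genes 4 fell, beside 16.9% of all genes tested, and 3 did not pass. Xpo1 (CRM1) exports proteins with a leucine-rich signal and stood at 50.8 FPKM in WT and 44.8 in cKO, a ratio of 0.882 (0.845 to 0.920). Cse1l, which returns importin alpha to the cytoplasm, went from 36.9 to 31.9 FPKM, 0.864 of WT (0.813 to 0.917). The exporters of small RNAs fell too. Xpot, which exports transfer RNA, was at 26.3 and 21.6 FPKM, a ratio of 0.823 (0.778 to 0.870), and Xpo5, which exports microRNA precursors, at 23.3 and 20.2 FPKM, a ratio of 0.868 (0.805 to 0.935). Xpo6, the exporter of actin, had the highest level of the exportins and was near WT, with 72.1 FPKM in WT and 73.0 in cKO. Xpo7 also did not pass, at 6.92 and 6.84 FPKM. Xpo4, known for export of the translation factor eIF5A, was at 16.9 and 15.1 FPKM and narrowly missed the threshold, with an FDR of 0.0568 in the authors' deposited table.

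**Figure D2:**
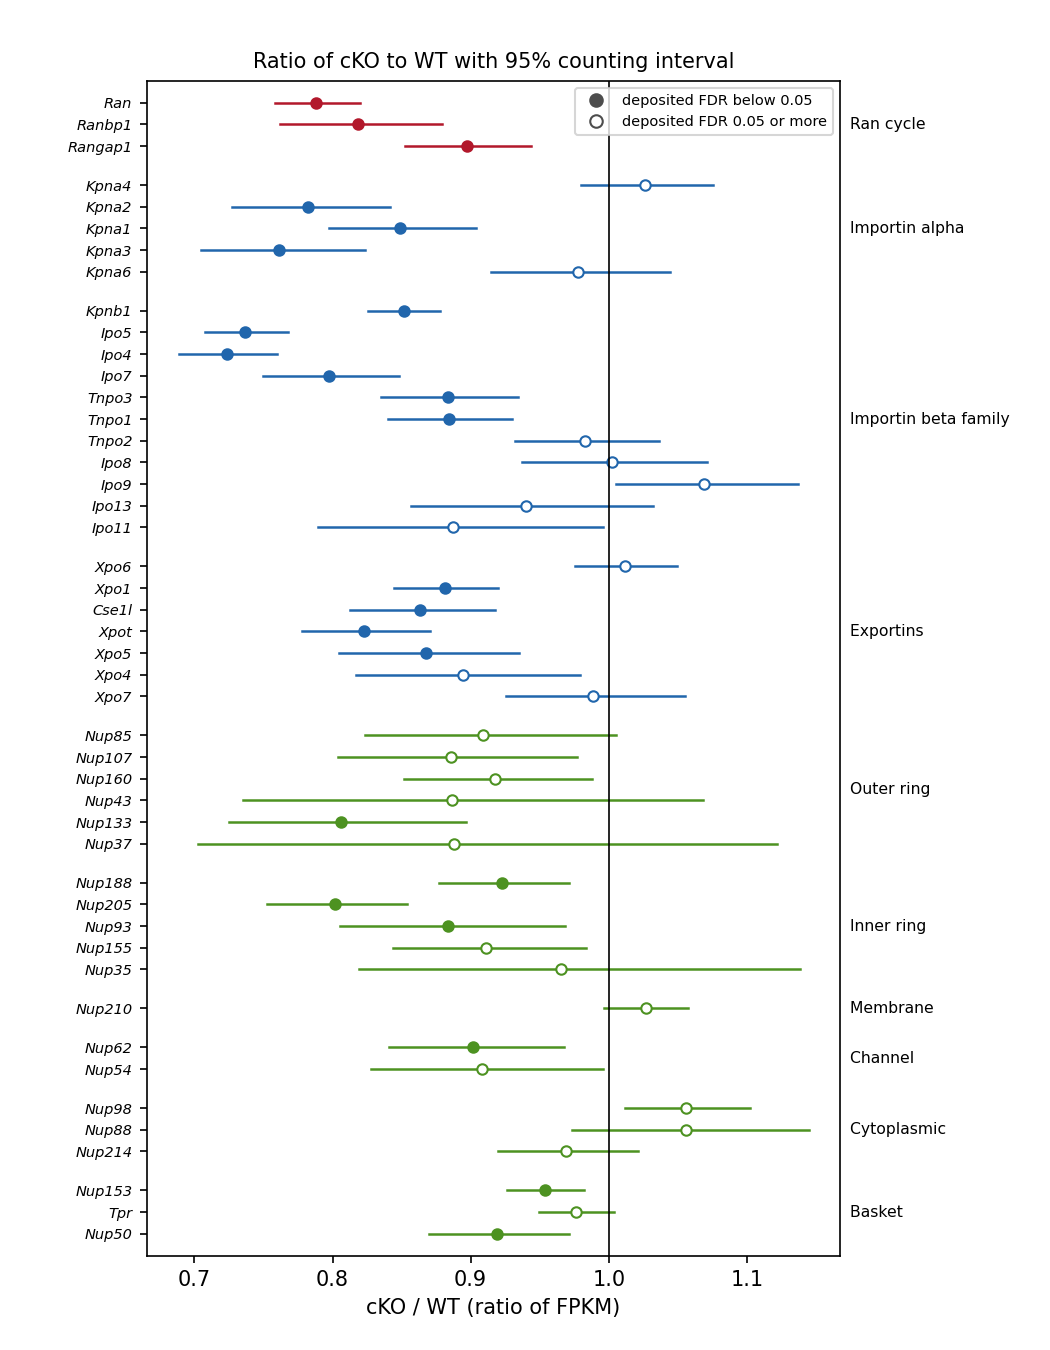
Ratio of cKO to WT FPKM for the 46 genes at 1 FPKM or more, with 95% counting intervals as lines; filled points had a deposited FDR below 0.05. Ipo4 and Ipo5 lie farthest to the left, at 0.723 and 0.737, and Ipo9 farthest to the right, at 1.07.

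The 20 pore proteins tested gave 7 falls and no rise, beside 16.9% lower and 19.9% higher among all genes tested. The scaffold rings held 4 of the falls. In the inner ring Nup205 went from 20.2 to 16.2 FPKM, 0.802 of WT (0.753 to 0.854), Nup93 from 19.5 to 17.3 FPKM, 0.884 of WT (0.806 to 0.968), and Nup188 from 31.7 to 29.2 FPKM, 0.923 of WT (0.877 to 0.971). Nup155 and Nup35, the other inner ring genes, did not pass. Nup155 was at 12.5 and 11.4 FPKM, a ratio of 0.911 (0.844 to 0.984), and Nup35 at 6.35 and 6.13 FPKM. The 6 genes grouped in the outer ring, or Y complex, all lay below WT, with Nup98 grouped on the cytoplasmic side instead. Of the 6, Nup133 alone passed, from 7.75 to 6.25 FPKM, a ratio of 0.806 (0.725 to 0.897). This count of 1 of 6 lay near the 16.9% of all genes tested that were lower. The 5 others were Nup85, Nup107, Nup160, Nup43 and Nup37, with ratios from 0.886 to 0.918. The interval of Nup107, 0.804 to 0.977, lay below 1, whereas that of Nup43, 0.735 to 1.07, did not. Their estimated reads in WT, from 159 for Nup37 to 1509 for Nup160, were fewer than those of most receptors.

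In the central channel 1 of 2 genes fell and in the nuclear basket 2 of 3, beside 16.9% of all genes tested. Among all genes at 10 FPKM or more, 22.8% were lower. Nup62, a channel protein with phenylalanine-glycine repeats, fell from 25.8 to 23.3 FPKM, a ratio of 0.902 (0.841 to 0.967), while its channel partner Nup54 had 24.0 and 21.8 FPKM, a ratio of 0.908 (0.828 to 0.996), and did not pass. In the nuclear basket Nup153 showed the smallest fall of the 23, from 87.8 to 83.8 FPKM, 0.954 of WT (0.926 to 0.982). Nup50, a basket protein that helps release importin alpha cargo, fell from 32.2 to 29.6 FPKM, 0.919 of WT (0.870 to 0.971). Tpr, the main filament of the basket, had 77.8 FPKM in WT and 75.9 in cKO and did not pass, with a ratio of 0.976 (0.950 to 1.004).

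None of the 3 genes grouped on the cytoplasmic side passed, beside 16.9% lower and 19.9% higher among all genes tested. Nup98, whose precursor also gives rise to an outer ring protein, was at 38.4 FPKM in WT and 40.6 in cKO, a ratio of 1.06 (1.01 to 1.10). It lay at the threshold, with an FDR of 0.0509 in the authors' deposited table and 0.0495 in a recomputed read test. Nup88 was at 27.3 and 28.8 FPKM, a ratio of 1.06 (0.973 to 1.14), and Nup214 at 20.2 and 19.6 FPKM. Nup210, a membrane protein of the pore that naive CD4+ T cells of mice need for their survival, was among the most abundant pore genes, at 70.5 and 72.4 FPKM. It did not pass either, with a ratio of 1.03 (0.997 to 1.06) on an estimated 8695 reads in WT.

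Set side by side, the median of the receptors lay slightly further below WT than that of the pore proteins. Of 23 receptors tested 13 fell, 56.5%, and of 20 pore proteins 7 fell, 35.0%, beside 16.9% of all genes tested. At 10 FPKM or more, 13 of 21 receptors and 6 of 17 pore proteins fell, beside 22.8% of all such genes. The gap between the classes depended on the scaling. With the median change of all genes set to 0, 14 receptors and 11 pore proteins were lower, beside 18.7% of all genes tested. Whatever the FDR, 19 of the receptors and 17 of the pore proteins lay below WT. The median change was -0.17 for receptors and -0.12 for pore proteins on the log2(FPKM + 1) scale, beside 0.02 for all genes tested, and receptors minus pore proteins came to -0.05. The counting interval of a single gene reached a median of 0.09 to either side on the log2 ratio scale. That width describes single genes and is no measure of error for a difference between class medians. Falls of at least 1.2-fold numbered 6 of 23 among receptors and 2 of 20 among pore proteins, beside 8.92% of all genes tested. The pore count lay near that share. Summed levels went from 830 to 726 FPKM for receptors, 0.874 of WT, and from 574 to 547 FPKM for pore proteins, 0.953 of WT. Receptors also had more reads, with a median of 2319 in WT against 1456 for pore proteins, and a small change passes more easily with more reads. The difference between the classes itself was not tested, since genes are not replicates of a genotype.

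**Figure D3:**
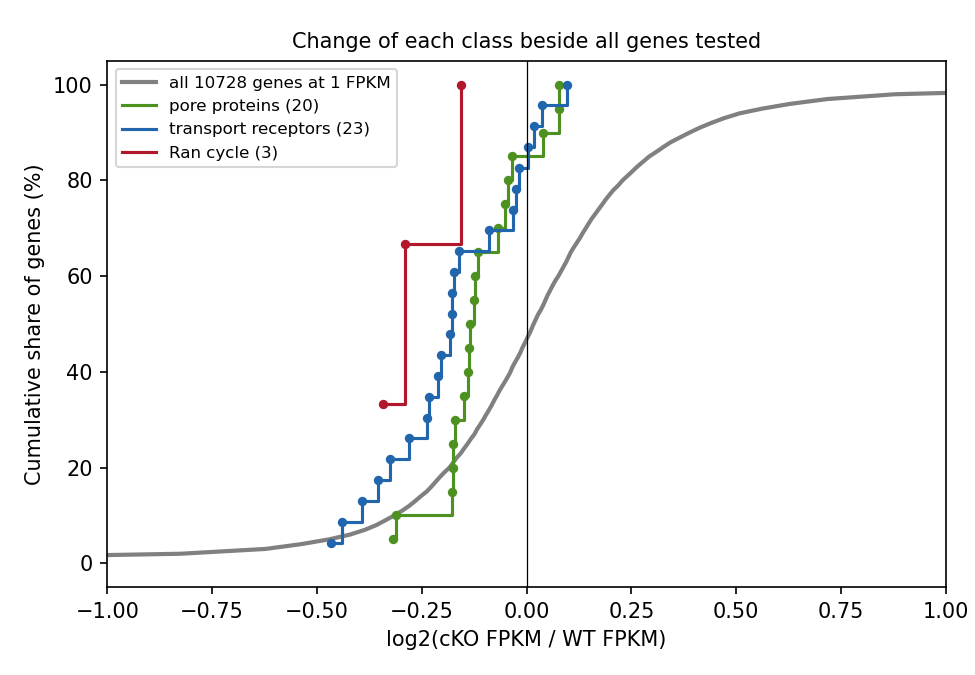
Cumulative share of genes (%) against log2(cKO FPKM / WT FPKM) for pore proteins, transport receptors, the Ran cycle and all 10728 genes tested. The receptor and pore curves cross 50% at -0.18 and -0.13, the curve of all genes at 0.02, and the receptor curve alone of these 2 classes extends to -0.47.

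The relation of level to change had opposite signs in the 2 classes. Across the 20 pore proteins the log2 ratio was higher for genes with a higher WT level (Pearson r = 0.51, Spearman rho = 0.57). The abundant Nup153, Tpr and Nup210 lay near WT, and their part in this value was not tested. Across the 23 receptors the relation had the opposite sign (r = -0.35, rho = -0.38), with Ipo4, Ipo5 and Kpnb1 both abundant and low. Xpo6 and Kpna4, abundant as well, lay near WT, with ratios of 1.01 and 1.03. These values describe genes that share the same 2 columns, and the WT level enters both axes.

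**Figure D4:**
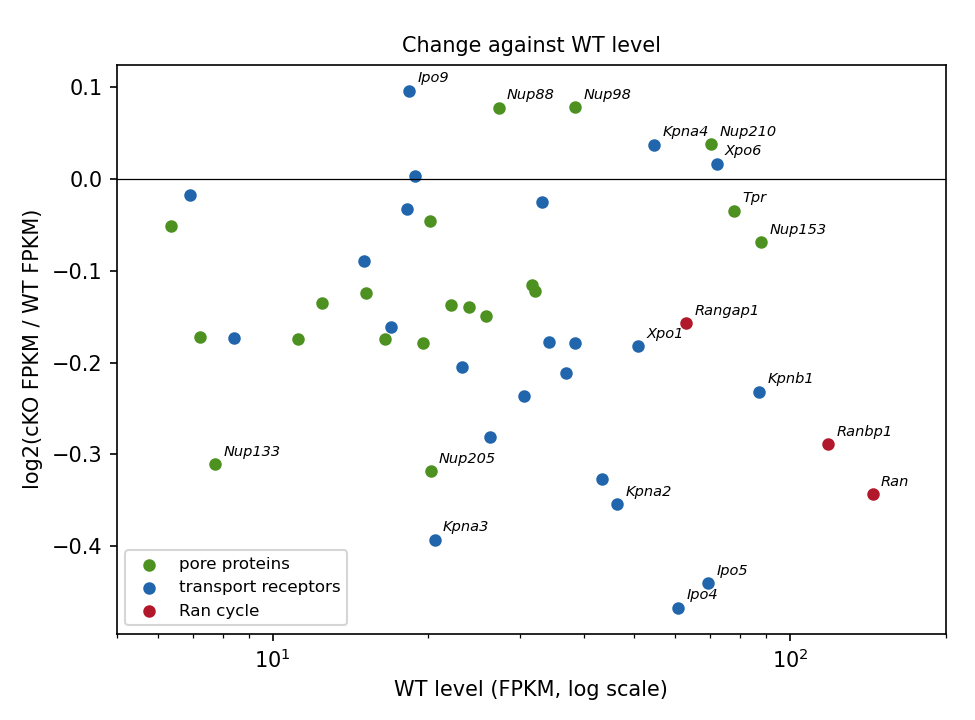
log2(cKO FPKM / WT FPKM) against WT FPKM (log axis) for the 46 genes, coloured by class. At high WT levels the pore genes Nup153, Tpr and Nup210 lie between -0.07 and 0.04, and Ran, Ipo4 and Ipo5 at -0.34 to -0.47. Other abundant genes lie between, with Ranbp1 at -0.29, Kpnb1 at -0.23 and Rangap1 at -0.16. The abundant receptors Xpo6 and Kpna4 lie near WT, at 0.02 and 0.04.

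Genes of the pore and of nuclear export that the symbol rule leaves out were also lower more often than higher. Of 36 such genes tested 14 fell, 3 rose and 19 did not pass, with a median ratio of 0.930. Of all genes tested 16.9% were lower and 19.9% higher, with a median ratio of 1.01. Of the 36 genes 5 fell by at least 1.2-fold, beside 8.92% of all genes tested. A rise of that size was found for 0 of the 36, beside 11.5% of all genes tested. Among 11 other pore genes 5 fell and 1 rose. The falls were Ndc1, a membrane anchor, from 7.01 to 5.59 FPKM, 0.797 of WT (0.672 to 0.944), Seh1l, an outer ring protein, to 0.850 of WT (0.787 to 0.918), Ranbp2, the large cytoplasmic filament protein, from 61.6 to 54.3 FPKM, Ahctf1, which seeds pore assembly on chromatin, to 0.888 of WT, and Rae1, an export factor, to 0.893. Aaas, which encodes the pore protein ALADIN, rose from 19.8 to 23.6 FPKM, 1.19-fold (1.07 to 1.33). Nupl1 and Nupl2, older symbols of the channel protein Nup58 and of Nup42, did not pass.

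Of 6 other Ran and carrier genes 2 fell, Rcc1 and Heatr3, beside 16.9% of all genes tested. Heatr3, which escorts ribosomal proteins in import, went from 21.5 to 15.6 FPKM, 0.726 of WT (0.664 to 0.793), a fall close in size to that of Ipo4. Of 19 genes of messenger RNA export 7 fell and 2 rose, beside 16.9% and 19.9% of all genes tested. Ddx19a, a helicase that releases messenger RNA at the cytoplasmic face, showed the largest fall of these, from 50.3 to 38.2 FPKM, 0.760 of WT (0.713 to 0.810), and the THO complex gene Thoc1 went to 0.827 of WT (0.766 to 0.893). Nxf1, the main export receptor for messenger RNA, rose by a small margin, from 149 to 157 FPKM, 1.05-fold (1.02 to 1.08), and Mcm3ap, the scaffold of the TREX-2 complex, rose 1.11-fold (1.05 to 1.17).

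Promoter sequences were compared because so many of these genes were lower together. RefSeq promoter windows on GRCm38.p6, the assembly of mm10, run from 250 bases before to 50 bases after a start site of a gene. Of the 48 genes, 38 had 45 such windows. A start site need not be the outermost base of its gene, and for Xpot and Ipo4 it is not. The E-box CACGTG, which reads the same on both strands and is bound by MYC with MAX among other factors, occurred in 8 of the 45 windows (17.8%), in 10.5% of the windows of genes at 1 FPKM and in 7.15% of all 32851 windows. A GC-rich motif of the type bound by Zfp281, CCCCTCCCC on either strand, occurred in 7 windows (15.6%), compared with 8.37% and 6.37%. The ETS motif CCGGAAG, searched on both strands, was in 15.6%, compared with 19.8% and 8.86%. No window of these genes held overlapping matches of different motifs. Of the 8 genes with an E-box 6 fell, with a median log2 ratio of -0.23, and Tnpo2 and Nup54 did not pass. Of the 29 tested genes without an E-box 14 fell, with a median of -0.15. Among all genes tested 16.9% were lower, and that share was not computed by motif. Of 7 genes with the GC-rich motif 4 fell, with a median of -0.12, and of 30 without it 16 fell, with a median of -0.17. Of 6 genes with the ETS motif 2 fell, with a median of -0.17, and of 31 without it 18 fell, with a median of -0.15. A match of letters is a description of these windows and no evidence of binding, and no test was made of these counts. The windows of the receptor and Ran genes that fell and hold an E-box are shown 5′ to 3′ on the strand of the gene, with the E-box in capitals, to show how differently it is placed. Those of Ran (chr5:129019906-129020205, + strand), Ipo7 (chr7:110018065-110018364, + strand), Xpot (chr10:121626283-121626582, - strand) and Ipo4 (chr14:55635635-55635934, - strand) are as follows.
Ran: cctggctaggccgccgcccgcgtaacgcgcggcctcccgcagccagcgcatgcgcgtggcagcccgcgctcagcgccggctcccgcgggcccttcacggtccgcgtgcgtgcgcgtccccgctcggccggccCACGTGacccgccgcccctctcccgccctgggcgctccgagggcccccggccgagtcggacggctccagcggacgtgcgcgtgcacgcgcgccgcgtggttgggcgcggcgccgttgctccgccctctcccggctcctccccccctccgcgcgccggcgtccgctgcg
Ipo7: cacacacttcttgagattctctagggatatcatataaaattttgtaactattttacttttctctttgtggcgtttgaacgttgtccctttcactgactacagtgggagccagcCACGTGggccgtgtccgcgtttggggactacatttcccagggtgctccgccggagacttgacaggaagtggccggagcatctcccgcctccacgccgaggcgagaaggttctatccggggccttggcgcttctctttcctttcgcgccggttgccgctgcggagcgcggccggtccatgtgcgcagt
Xpot: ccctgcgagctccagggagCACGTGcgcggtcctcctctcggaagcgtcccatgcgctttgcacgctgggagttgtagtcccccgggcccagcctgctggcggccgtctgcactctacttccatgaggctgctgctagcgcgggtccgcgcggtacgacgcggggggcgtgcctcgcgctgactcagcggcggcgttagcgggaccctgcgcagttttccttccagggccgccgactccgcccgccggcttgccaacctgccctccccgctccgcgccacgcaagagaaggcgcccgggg
Ipo4: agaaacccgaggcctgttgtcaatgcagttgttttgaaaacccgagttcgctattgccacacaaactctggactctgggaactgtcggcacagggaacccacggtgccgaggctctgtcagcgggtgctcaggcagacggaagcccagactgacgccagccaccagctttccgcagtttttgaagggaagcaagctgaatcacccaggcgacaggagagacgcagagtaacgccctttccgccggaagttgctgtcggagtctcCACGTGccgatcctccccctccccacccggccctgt
The E-box lies at bases 133 to 138 of the Ran window, 114 to 119 for Ipo7, 20 to 25 for Xpot and 265 to 270 for Ipo4. In Ipo4 it thus falls after the start site of the window and in the others before it. G and C made up 82% of the Ran window, 72.3% of that of Xpot, 59.7% of that of Ipo4 and 56.3% of that of Ipo7. The Ipo4 window also holds 1 GC-rich motif and 1 ETS motif, left in small letters. The pore genes Nup188 and Nup93, which fell and hold an E-box as well, are not shown.

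The genes are spread over 15 chromosomes. Only Ipo9 and Tpr share chromosome 1 with the targeted gene. Ipo9 (135382312 to 135430499, GRCm38) lies 1.19 Mb from Zfp281 and Tpr 13.8 Mb from it, and neither passed. Some values rest on reads that could belong to another gene. In the GENCODE annotation 7 of the 48 genes, Kpna2, Nup35, Nup54, Ran, Tnpo1, Xpo4 and Xpot, have a copy with at least 95% identity over 300 bases or more, most of them processed pseudogenes, with 5 copies for Kpna2. Ipo4 shares 60.1% and Ranbp1 25% of its annotated exon bases with a further gene model on the same strand, and Nup62 shares 3.23% with Il4i1, whose level was 1.73 FPKM in WT and 3.85 in cKO. The authors' handling of such reads was not given in the sources used here. Without the 11 genes that share sequence in these ways, 15 of 35 were lower and none higher, a choice made after the data were seen. Exon bases shared on the opposite strand were no reason to leave a gene out, although strandedness was not given. Such sharing was 10.9% for Tnpo2, 5.88% for Tnpo3, 7.91% for Kpnb1 and, with 1 of its 2 partners, 7.94% for Nup133.

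How firmly these falls can be read depends on the unknown variation between libraries. If the reads of each genotype are taken to vary by a further 10% (coefficient of variation, CV), none of the 46 genes would have passed in either direction, Ipo4 and Ipo5 included. The same assumption left 0.699% of all genes tested lower and 0.764% higher.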

How the data were processed

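RNA of stimulated naive CD4+ T cells was sequenced on a BGISEQ-500, per the labels' protocols. Bowtie2 2.2.5 and mm10 appear in the submitters' processing notes, while quantifier, annotation, strandedness and statistical test were not given in the sources used here. FPKM was deposited by the authors as 1 value per gene and genotype, and nothing per the file headers says how libraries were joined. The log2 fold change deposited by the authors is the log2 of cKO over WT FPKM. The p-value of each gene was deposited by the authors, and their deposited FDR, which can exceed 1, was handled as a score.

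A count test was foreseen only if library counts were present; they were not, so calls rest on the deposited FDR (below 0.05, at least 1 FPKM in either genotype). Class medians use log2(FPKM + 1), which understates changes of low genes. Reads were estimated from FPKM times length (less 34 bases) at 56.8 FPKM bases per read in WT, with 0.01 FPKM as 0 and a depth ratio of cKO to WT of 0.991 read from deposited p-values. A read test in the manner of Audic and Claverie, tested on simulated data, correlated with the deposited p-values at r = 0.999 (log10, across 16706 genes), in part because it was calibrated on them. For the assumed CV, a normal test of the log ratio was used.

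Members, role lists and motifs were chosen with earlier results of these data known. Every member could be named. By rule, ratios with intervals went to Ran, Rangap1, Ranbp1, Xpo1, Kpnb1, Tpr, up to 3 members per role group with the largest changes and up to 6 called pathway genes outside the set. The ratios of Ipo9, Tnpo1, Tnpo3, Nup188, Seh1l, Ahctf1, Rae1, Nxf1 and Mcm3ap were added after their values were seen. All 48 gene IDs matched RefSeq (GRCm38.p6). Near copies were sought with blastn 2.17.0. Python 3.11.15, scipy 1.17.1 and pandas 2.3.3 were used.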

Additional observations from a re-analysis of the deposited data

How the results depend on the processing

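No paired analysis was possible because the table holds no value for a single library, and for the same reason leaving out each replicate was not run. No filter on low values and a filter at 10 FPKM kept every count within 1.5 times the reported value. With these or a pseudocount of 0.1, pore medians ran from -0.118 to -0.128 and receptor medians from -0.173 to -0.178 (log2). Receptors minus pore proteins then ran from -0.05 to -0.06. With the median change of all genes set to 0 (a shift of 0.02 on the log2 scale), the 23 lower genes stayed lower and Nup107, Nup155, Nup160, Tpr and Xpo4 joined them, so that pore proteins went from 7 to 11 lower and receptors from 13 to 14. With a further CV of 10% placed on the reads of each genotype, the lower counts were 0 for all members, 0 for pore proteins, 0 for receptors and 0 for the Ran cycle, and among the other pathway genes 0 were lower and 0 higher. Requiring a change of at least 1.2-fold left 10 members lower, 2 of them pore proteins and 6 receptors. Among 36 other pathway genes it left 5 lower and 0 higher. The shares of all genes tested were 8.92% lower and 11.5% higher. Chosen after the data were seen, the recomputed read test called 1 member higher, Nup98 (FDR 0.0495). Leaving out members with a near copy or with exons shared on the same strand gave 15 lower of 35, with fewer genes tested. Nup37 and Nup43 had the fewest estimated reads of the 46 genes, 159 and 247 in WT.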

Other observations

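The deposited table also carries short annotation terms, which the symbol rule did not use. The cellular component term "nuclear pore" was attached to 9 genes of the whole table, and 7 of these were among the 21 pore proteins. The broader term "nuclear envelope" was attached to 135 genes of the table, among them 9 of the pore proteins and 15 of the 24 transport receptors.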
